A study of Mus musculus with 13 samples.

Results

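10 genes of cornified, skin-like epithelium were followed through development of the mouse submandibular salivary gland. They were Krt1, Krt10, Lor, Flg, Ivl, Asprv1, Krtdap, Sprr1a, Sprr1b and Calml3. They were selected on the FPKM values of these same samples, E18.5 in particular, so their levels at E18.5 are given as a description and without a test. FPKM is the number of reads on a gene scaled by the length of the gene and by the sequencing depth. The rows of 9 of the 10 genes were found among the 23364 genes of each sample, and Flg was not analysed here. Whole glands of C57BL/6 mice gave 13 RNA-seq samples, of which 3 came from embryonic day E14.5 and 2 from each of 5 later ages. Those were embryonic days E16.5 and E18.5, postnatal day P5, 4 weeks (4wk) and 12 weeks (12wk). Each E14.5 sample pooled the glands of 3 animals and each E16.5 or E18.5 sample those of 2 animals. The adult mice (4wk and 12wk) were males, while sex was not determined for embryos and P5 mice. The labels name no transgene and no treatment.

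Cornification is the last step in the life of a keratinocyte, the main cell of the epidermis. As the cell leaves the basal layer it replaces its basal keratins with the Krt1 and Krt10 pair, then deposits precursor proteins under its membrane that transglutaminases crosslink into a rigid cornified envelope, while proteases and lipid enzymes finish the barrier. Many envelope precursors lie side by side in 1 stretch of the genome, the epidermal differentiation complex. The salivary gland grows from the oral epithelium, and its secretory acini and its ducts have no cornified layer.

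In the glands, 6 of the 9 measured members were highest at E18.5, with both samples above all 11 others. These were the suprabasal keratins Krt1 and Krt10, the envelope precursors Lor and Ivl, the protease Asprv1 and the secreted differentiation protein Krtdap. Sprr1a was highest at E16.5. Calml3 had its highest mean at E14.5, with samples that overlapped those of E16.5. Sprr1b stayed within a few reads in every sample. For comparison, 2.7% of all 23364 genes had both E18.5 samples above the 11 others. In the adult samples Krt10 and Calml3 were at 0.844 to 2.47 FPKM and the 7 other measured members at no more than 0.231 FPKM.

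**Figure D1:**
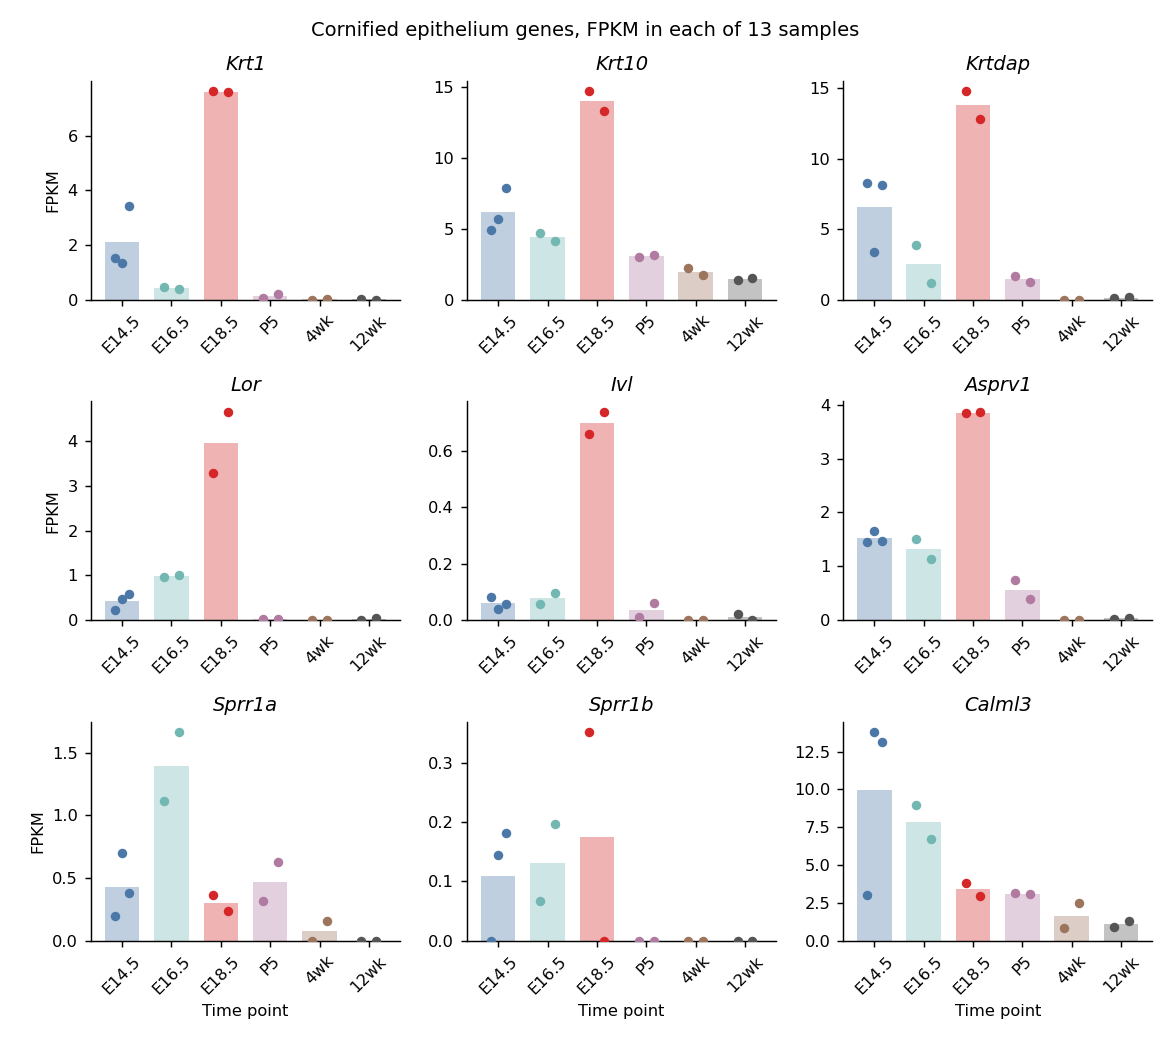
FPKM (vertical axes, from 0) of the 9 measured members at the 6 time points, with bars for the mean and a point for each sample. Krt1, Krt10, Krtdap, Lor, Ivl and Asprv1 stand highest at E18.5, with Krt1 at 7.61 and 7.60 FPKM. Sprr1a is highest at E16.5, and Calml3 has its highest mean at E14.5, where its samples overlap with E16.5.

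The start regions of members that were highest together at E18.5 are printed beside that of Sprr1a, which was highest earlier. Each is the 150 bases just before the transcription start in RefSeq on GRCm38.p6, placed on mm9 by an exact match found at a single position. Windows were listed for 7 of the 9 members, without Krt1 and Calml3. Capitals mark AP-1 sites, spelled TGANTCA, and TATA boxes, spelled TATAAA, on either strand.
Krt10, chr11:99250679-99250828, minus strand: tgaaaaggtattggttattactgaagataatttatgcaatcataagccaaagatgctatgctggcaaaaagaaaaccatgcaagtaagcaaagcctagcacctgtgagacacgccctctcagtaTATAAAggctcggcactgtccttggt
Lor, chr3:91887065-91887214, minus strand: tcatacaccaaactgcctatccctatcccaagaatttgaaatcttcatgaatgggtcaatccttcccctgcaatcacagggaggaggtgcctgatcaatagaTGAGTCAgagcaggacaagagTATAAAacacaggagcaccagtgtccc
Ivl, chr3:92377658-92377807, minus strand: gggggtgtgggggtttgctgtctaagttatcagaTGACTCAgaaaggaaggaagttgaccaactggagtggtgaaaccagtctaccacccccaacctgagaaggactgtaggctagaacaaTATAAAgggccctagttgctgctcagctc
Asprv1, chr6:86578018-86578167, plus strand: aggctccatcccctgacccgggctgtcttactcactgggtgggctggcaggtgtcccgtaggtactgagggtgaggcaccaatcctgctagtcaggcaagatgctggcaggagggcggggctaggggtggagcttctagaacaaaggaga
Krtdap, chr7:31572774-31572923, plus strand: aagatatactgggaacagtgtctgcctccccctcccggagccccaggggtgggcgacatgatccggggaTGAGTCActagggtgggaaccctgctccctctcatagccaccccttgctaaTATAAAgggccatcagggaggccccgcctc
Sprr1a, chr3:92289804-92289953, minus strand: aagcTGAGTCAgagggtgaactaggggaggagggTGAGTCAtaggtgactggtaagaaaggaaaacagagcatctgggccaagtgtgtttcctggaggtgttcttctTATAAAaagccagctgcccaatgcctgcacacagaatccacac

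Within 250 bases before the start, the letters of an AP-1 site were present in 5 of the 7 members, namely Lor, Ivl, Krtdap, Sprr1a and Sprr1b, against 6.73% of all 32526 windows of that length. Sprr1a held 2 of them and Krt10 and Asprv1 none. A TATA box was present in 6 of the 7 members, all but Asprv1, against 12.3% of windows. The letters CACCC, which are read by Klf factors, were found in 6 of the 7 members, all but Lor, and in 52.1% of windows. In Sprr1a a CACCC match on the other strand overlapped an AP-1 match. An AP-1 site and a TATA box were thus found together in Lor, Ivl and Krtdap, which were highest at E18.5, in Sprr1a, which was highest at E16.5, and in Sprr1b, which was near 0 throughout. A match describes letters and shows no binding.

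Krt1 and Krt10 are the type II and type I keratins that pair in suprabasal epidermal cells. Krt1 (mm9 chr15:101675859-101681217) was at 7.61 and 7.60 FPKM in the E18.5 samples, from 323 and 603 reads. It had been at 1.55, 1.34 and 3.42 FPKM at E14.5 and at 0.485 and 0.405 FPKM at E16.5. After birth Krt1 was at 0.0761 and 0.213 FPKM at P5, at 0 and 0.0514 FPKM at 4wk and at 0.0375 and 0.0144 FPKM at 12wk. The course of Krt1 was therefore high, low, highest and then near 0, and the samples of the embryonic time points and of P5 did not overlap with each other. The mean at E18.5 was 17.1 times that at E16.5 and 52.5 times that at P5.

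Krt10 (mm9 chr11:99246568-99250678) had the highest mean of the members at E18.5, at 14.7 and 13.4 FPKM, though its samples overlapped with those of Krtdap. It was at 4.96, 5.71 and 7.90 FPKM at E14.5, at 4.72 and 4.18 FPKM at E16.5 and at 3.03 and 3.17 FPKM at P5. The adult glands still held 2.22 and 1.74 FPKM at 4wk and 1.42 and 1.56 FPKM at 12wk. Unlike Krt1, its partner, Krt10 thus never reached 0, and its E18.5 mean of 14.03 ± 0.957 FPKM (SD, n = 2) was 3.16 times that at E16.5.

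Krtdap, a small secreted protein of differentiating keratinocytes, followed Krt10 in size. Krtdap (mm9 chr7:31572924-31576102) was at 14.8 and 12.8 FPKM at E18.5, against 3.87 and 1.18 FPKM at E16.5 and 1.68 and 1.30 FPKM at P5. The E14.5 samples spread over 8.30, 3.37 and 8.12 FPKM and overlapped with E16.5. It was listed at 0 in both 4wk samples and at 0.101 and 0.231 FPKM at 12wk, where the higher sample rested on 3 reads. For this short gene 1 read was worth 0.377 and 0.276 FPKM in the 4wk samples, so 4wk cannot be ranked below 12wk.

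Lor encodes loricrin, the bulk protein of the cornified envelope, and Ivl involucrin, which is laid down first. Lor (mm9 chr3:91884197-91887064) was at 3.27 and 4.64 FPKM at E18.5, from 101 and 268 reads. Before that it stood at 0.233, 0.466 and 0.589 FPKM at E14.5 and at 0.961 and 1.01 FPKM at E16.5, so it was higher at each successive embryonic time point with no overlap. At P5 only 2 reads were left in each sample (0.0233 and 0.0267 FPKM), and 3 of the 4 adult samples were at 0.

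Ivl (mm9 chr3:92374834-92377637) was at 0.659 and 0.737 FPKM at E18.5, which corresponds to 22 and 46 reads. The other 11 samples held between 0 and 7 reads each, with at most 0.0975 FPKM at E16.5 replicate 2. The E18.5 mean was 9.02 times that of E16.5. Ivl never reached 1 FPKM and so stayed out of every test.

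Asprv1 encodes a retroviral-like aspartic protease that helps process filaggrin, the matrix protein of cornified cells. Asprv1 (mm9 chr6:86578168-86579696) was nearly level at E14.5 and E16.5, at 1.46, 1.65 and 1.47 FPKM and at 1.51 and 1.14 FPKM. At E18.5 it was at 3.84 and 3.87 FPKM, 2.91 times the E16.5 mean. It was at 0.744 and 0.387 FPKM at P5, and the adult samples held 0 to 2 reads each.

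Sprr1a and Sprr1b encode small proline-rich proteins that crosslink other envelope proteins, and they lie between Lor and Ivl on chromosome 3. Sprr1a (mm9 chr3:92287877-92289816) was at 1.12 and 1.66 FPKM at E16.5, from 32 and 49 reads. It was lower on both sides, at 0.197, 0.699 and 0.379 FPKM at E14.5 and at 0.365 and 0.234 FPKM at E18.5, where 5 and 6 reads were seen. P5 samples were at 0.314 and 0.630 FPKM and overlapped with E14.5. Sprr1b (mm9 chr3:92240731-92242701) had between 0 and 6 reads in any sample, with 5 reads in E18.5 replicate 1 and 0 in replicate 2, a depth at which no difference could be seen.

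Calml3, a calmodulin-like protein of epithelial cells, had another course. Calml3 (mm9 chr13:3802139-3803564) was at 13.8 and 13.1 FPKM in E14.5 replicates 2 and 3 but at 3.02 FPKM in replicate 1. That replicate also had the highest sum of 16 skeletal muscle markers of its time point, 680 FPKM against 361 and 264 FPKM. Its sum of 8 basal epithelial markers was the lowest, at 171 FPKM against 237 and 247 FPKM. Krt5 (21.5 against 8.81 and 10.2 FPKM) and Dst (9.16 against 4.90 and 4.99 FPKM) went the other way. The sums of 10 acinar and 8 duct markers were also lowest in replicate 1, at 63.3 and 193 FPKM. The highest sums at E14.5 were 525 and 390 FPKM. The part of these differences in the Calml3 level was not tested. Calml3 was at 8.97 and 6.75 FPKM at E16.5, at 3.84 and 2.96 FPKM at E18.5 and at 3.14 and 3.08 FPKM at P5. Adult glands kept 0.844 and 2.47 FPKM at 4wk and 0.932 and 1.33 FPKM at 12wk. At E18.5, when 6 of the other members were highest, the Calml3 mean was thus below those of E14.5 and E16.5. It was above the means of both adult ages.

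Across the 13 samples, which share time points and differ in depth, Pearson's r between a member and the mean standardised level of the other members was 0.961 for Krt10 and Asprv1, 0.875 for Krtdap, 0.863 for Krt1 and 0.855 for Lor. It was 0.711 for Ivl, 0.656 for Sprr1b, 0.547 for Calml3 and 0.364 for Sprr1a. Summed over the 9 members, the level was 49.4 and 46.2 FPKM at E18.5, between 16.6 and 35.2 FPKM at E14.5 and E16.5, 9.01 and 8.87 FPKM at P5, and between 2.55 and 4.42 FPKM in the adult. In bulk samples, fewer cells of a type and less RNA per cell cannot be told apart.

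The sequencing depth sets how far low values can be read. Reads on genes, recovered from the deposited FPKM, ranged from 5817293 in 4wk replicate 1 to 48314162 in P5 replicate 1, and were 17345305 and 32444867 at E18.5. On a gene of 1 kilobase 1 read was worth 0.0577 and 0.0308 FPKM in the E18.5 samples and 0.172 FPKM in 4wk replicate 1. E18.5 replicate 2 had 6431 genes at 0 against 6067 in replicate 1, although it was deeper. Among genes whose reads were recovered exactly, 49 had 1 read and 55 had 2 reads in replicate 2, against 146 and 125 in replicate 1. The reason was not tested, and the read numbers of replicate 2 may overstate its depth. The tested members of this pair differed by at most 0.40 on the log2(FPKM + 1) scale (Lor), where the median of all tested genes was 0.18.

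Steps that do not involve E18.5 were tested, for 7 members with at least 1 FPKM in some sample among 14650 genes. A gene was called when its log2 fold change of FPKM + 1 was at least 1 in size with a limma adjusted p below 0.1. From E14.5 to E16.5, 2 of the 7 members were lower and 0 higher, while 0.983% of all genes were lower and 4.17% higher. Krt1 fell by 1.04 (SE 0.23, adjusted p = 0.012) and Krtdap by 1.14 (SE 0.36, adjusted p = 0.047). The Krtdap samples overlapped, and both calls depended on single samples or settings. Without E14.5 replicate 3 the log2 changes were -0.76 for Krt1 and -0.97 for Krtdap, and neither gene was called. Krtdap also lost its call without E14.5 replicate 1 (-0.96) or E16.5 replicate 2 (-0.56) and with only the samples compared (adjusted p = 0.16). Krt1 was not called after rescaling by median-of-ratios factors (-0.91). Sprr1a (0.75, SE 0.18) and Lor (0.48, SE 0.16) had values above 0 but under the fold threshold. Sprr1a reached 1 FPKM at E16.5 alone, and Lor at E18.5 and in 1 E16.5 sample, so a value above 0 at this step is in part a condition of their being tested. Krt10 (-0.38), Asprv1 (-0.12) and Calml3 (-0.10) had adjusted p of 0.16, 0.62 and 0.92.

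From P5 to the adult time points, Krtdap was lower (-1.20, SE 0.34, adjusted p = 0.0090, with all 4 adult samples below both P5 samples). It was the only member called of 7, beside 21.3% of all genes lower and 2.57% higher. The median of all genes was itself -0.53 here and -0.04 after rescaling by median-of-ratios factors, under which Krtdap stayed called at -1.10. With a pseudocount of 0.1 in place of 1, 4 members were lower, namely Krtdap (-3.30), Asprv1 (-2.45), Sprr1a (-2.12) and Calml3 (-1.22). Krt10 (-0.59, adjusted p = 0.0089) was under the fold threshold and not among these 4, and its change was close to the median of all genes, -0.53. Asprv1 (-0.61, adjusted p = 0.0028) and Sprr1a (-0.50, adjusted p = 0.027) were under the fold threshold with the pseudocount of 1. That pseudocount limits how far members that are already low at P5 can fall on this scale. Asprv1, for one, went from 0.565 ± 0.252 to 0.0190 ± 0.0229 FPKM (mean ± SD, n = 2 and 4). Calml3 was at -0.83 (SE 0.45, adjusted p = 0.13) and was also called when 4wk replicate 2 was left out (-1.05), which brought the count to 2 members. Krt1 and Lor started from near 0 at P5, with log2 changes of -0.16 and -0.01.

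To set the members beside the rest of the pathway, 150 other genes of cornification were listed in 7 groups, of which 148 were in the files, 17 were at 0 in every sample and 72 were tested. Of the 148 genes, 25 (16.9%) had both E18.5 samples above the 11 others, against 2.7% of all genes, and 12 of these 25 were too low to be tested. They were 12 of 37 envelope precursors, 5 of 22 proteases and inhibitors, 3 of 12 S100 and S100-fused genes, 2 of 23 genes of barrier lipids, 2 of 24 regulators, 1 of 14 keratins and 0 of 16 genes of crosslinking and desmosomes. Of the 25, 10 were Lce1 genes, which are near-identical copies. The lists were chosen with earlier results of these data known, so these shares are a description and no independent support.

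The late cornified envelope genes stood out among the precursors. Their products are added to the inner face of the finished envelope. Lce1m was at 5.52 and 6.82 FPKM at E18.5, at 0.157 and 0.0917 FPKM at E16.5 and at 0 in the other 9 samples. The log2 change of FPKM + 1 from E16.5 to E18.5 was 2.67 (SE 0.14). Lce1m reached 1 FPKM at E18.5 alone and was tested only for that reason, so its calls at E18.5 and P5 are no independent support. Of the 13 Lce1 genes, 10 had both E18.5 samples above every other sample, and none was above 0 in a P5 or adult sample. Most were far below Lce1m, such as Lce1b at 0.535 and 1.00 FPKM, Lce1i at 1.26 and 0.590 FPKM and Lce1f at 0.0804 and 0.0430 FPKM, the last near the value of a single read. Summed over 19 Lce genes the level was 9.86 to 13.6 FPKM at E18.5, 0.364 to 0.814 FPKM at E16.5 and at most 0.119 FPKM elsewhere. Lce1 genes are near-identical copies and reads with several positions were discarded, so the split among them is uncertain.

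The complex as a whole was uneven. Between S100a1 and S100a11 (mm9 chr3:90314956-93330209, a stretch chosen after its values were seen) the files listed 63 genes, among them Lor, Ivl, Sprr1a and Sprr1b. Of the 59 others, 16 (27.1%) had both E18.5 samples above the rest, against 2.7% of all genes. Most of these 16 were already among the 25 genes of the cornification lists, so the shares overlap and are not separate support. Among the 59, 17 were at 0 in every sample and 16 were tested. Of the 16 genes high at E18.5, 10 were Lce1 genes, most of them in the cluster beyond Ivl. Others lay farther out, with Hrnr at 0.433 and 0.940 FPKM and Flg2 at 0.451 and 0.358 FPKM, both of them S100-fused matrix proteins related to filaggrin. In contrast, 9 of 11 Sprr2 genes were at 0 in all samples and 0 of 11 were above 0 at E18.5. These too are near-identical copies, so their values are uncertain.

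**Figure D2:**
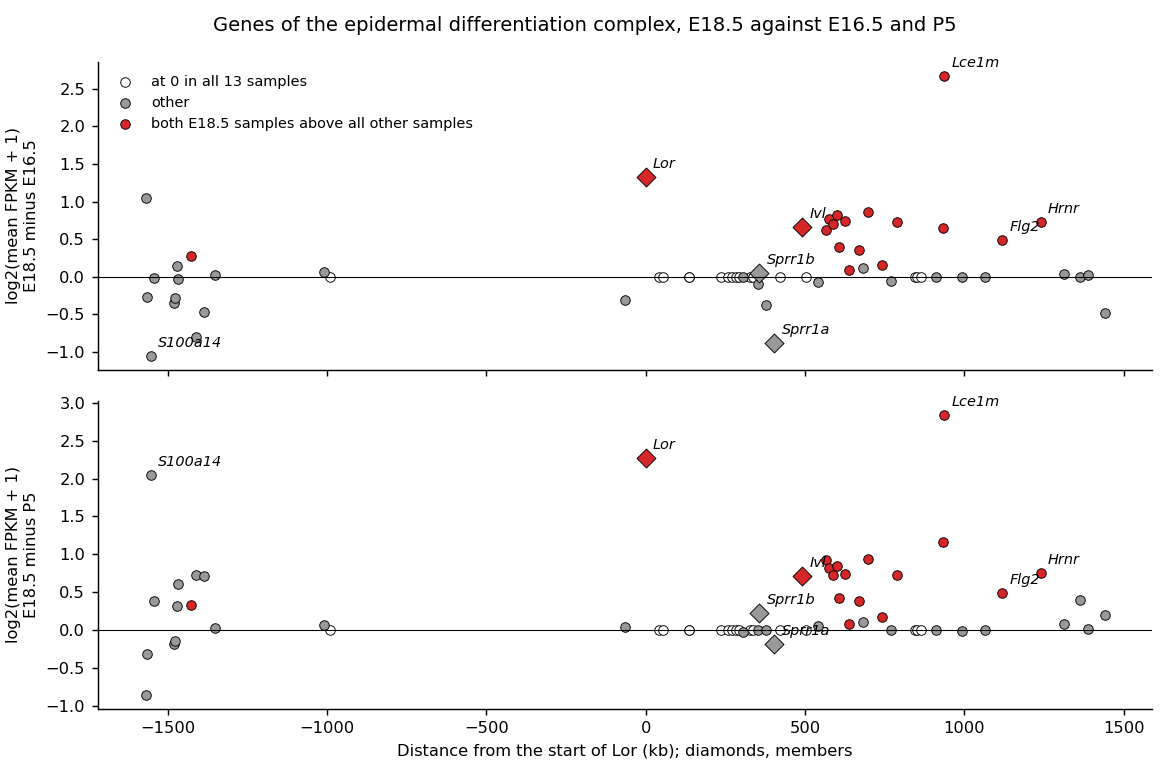
Difference of log2(mean FPKM + 1) between E18.5 and E16.5 (top) and between E18.5 and P5 (bottom) for 63 genes of the epidermal differentiation complex, by distance from the start of Lor in kilobases. Diamonds are members, red points have both E18.5 samples above the 11 others and open points are at 0 in all samples; Lor, Ivl and Lce1m lie above 0 in both panels, while Sprr1a lies below 0 in both.

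Among proteases and inhibitors, Spink5, which encodes the inhibitor that holds back the kallikreins of desquamation, rose from 1.39 and 1.97 FPKM at E16.5 to 9.43 and 8.59 FPKM at E18.5 (log2 change 1.91, SE 0.17, adjusted p = 1.1e-04). Spink5 was lower again at P5, at 1.96 and 2.80 FPKM (-1.58, adjusted p = 2.9e-04), and at 0 in all 4 adult samples. Among its targets, Klk5 and Klk7 were at 0.233 and 0.124 FPKM and at 0.628 and 0.777 FPKM at E18.5. Casp14, a caspase of cornified cells, was at 0.223 and 0.291 FPKM. All 3 were above their 11 other samples and below the test's filter. The related Klk6, Klk12, Klk13 and Klk14 were at 0 in both E18.5 samples. Klk8 was more abundant than Klk5 and Klk7 but had no peak at E18.5. It was at 5.53, 6.12 and 5.40 FPKM at E14.5, 5.61 and 2.80 FPKM at E16.5 and 1.74 and 4.76 FPKM at E18.5. Klk9, Klk10 and Klk11 were at no more than 0.119 FPKM at E18.5 and did not have both samples above the others. Stfa3, a stefin that inhibits cysteine proteases, rose from 8.23 and 5.07 to 13.99 and 17.58 FPKM (1.16, SE 0.33, adjusted p = 0.051) and was lower at P5 (-2.43, adjusted p = 9.7e-04), although stefins too have close copies that can share reads. Alox12b, a lipoxygenase of the lipid envelope, was at 0.221 and 0.368 FPKM at E18.5 and under 0.05 FPKM in the rest.

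Over all 72 tested genes, 3 (4.17%) were higher at E18.5 than at E16.5, namely Lce1m, Spink5 and Stfa3, where 1.09% of all genes were. Likewise 3 (4.17%) were lower, against 1.85% of all genes, and the median log2 change of the 72 equalled that of all genes, -0.14. Lce1m and 5 other Lce1 genes were among the 72 only through their E18.5 values. Without these 6, 2 of 66 genes (3.03%) were higher and 3 (4.55%) lower, and without such genes 1.07% and 1.86% of all genes were. The lower genes were transcription factors, namely Cebpb (53.3 ± 11.4 to 13.7 ± 1.94 FPKM, mean ± SD, n = 2, log2 change -1.88, adjusted p = 7.4e-04), Grhl3 (-1.05, adjusted p = 0.0069) and the Notch target Hes1 (-1.02, adjusted p = 0.0039). The count of lower genes was 5 without E16.5 replicate 1 and 1 after rescaling.

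From E18.5 to P5, 7 of the 72 genes (9.72%) were lower, where 2.97% of all genes were, and 2 (2.78%) were higher, where 2.07% were. Without the 6 genes that reached 1 FPKM at E18.5 alone, 6 of 66 (9.09%) were lower, where 2.94% of all such genes were. Besides Lce1m, Stfa3 and Spink5, the lower genes were the calcium-binding S100a14 (-2.05, adjusted p = 4.0e-04), the secreted Dmkn (-1.50, adjusted p = 0.0017), the transcription factor Maf (-1.12, adjusted p = 0.0072) and the serpin Serpinb12 (-1.03, adjusted p = 0.022). The higher genes were Dsc3, a desmosomal cadherin (1.11, adjusted p = 0.023), and Fa2h, which hydroxylates fatty acids (1.03, adjusted p = 0.0023). Without P5 replicate 1 the count of higher genes was 0, and without E18.5 replicate 2 it was 1.

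**Figure D3:**
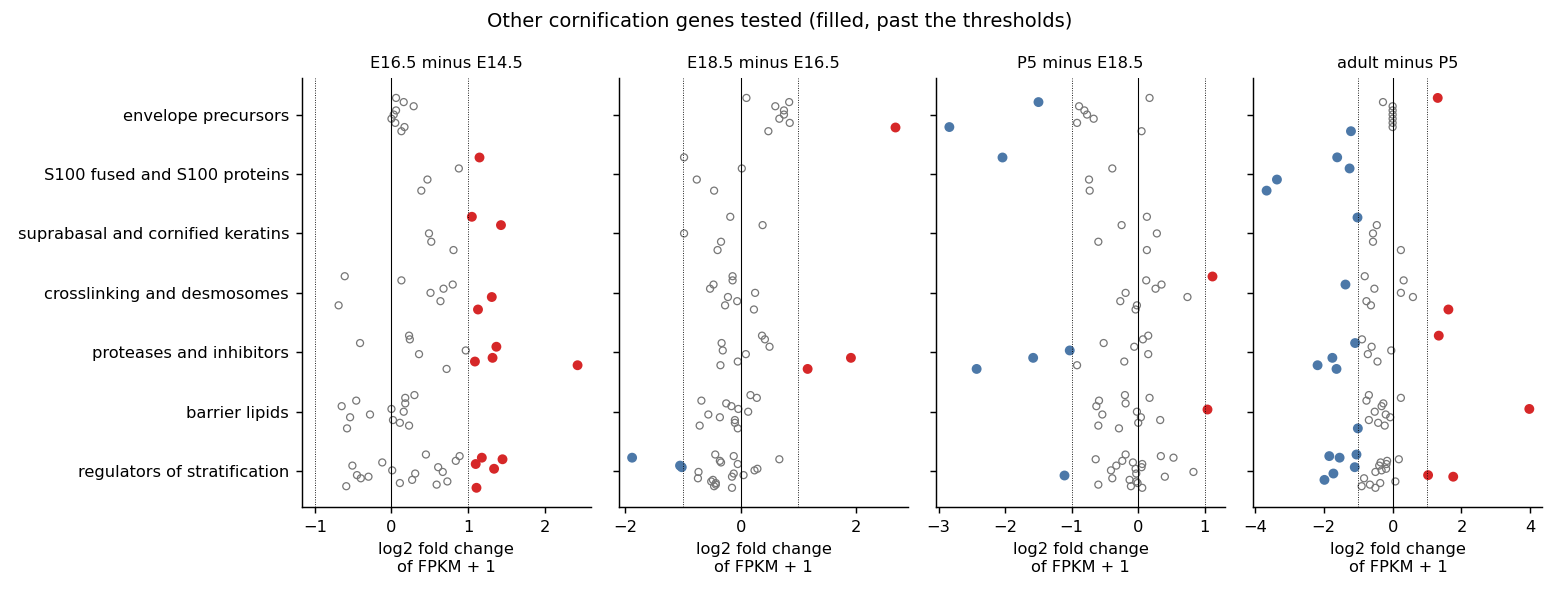
log2 fold change of FPKM + 1 (horizontal axes) of the 72 tested cornification genes other than members, in 7 groups and 4 comparisons of time points. Filled points passed both thresholds (red higher, blue lower), dotted lines mark a change of 1, and Lce1m and Spink5 are the far right points of E18.5 minus E16.5.

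The earlier step from E14.5 to E16.5 looked different in the wider list than in the members. Of the 72 genes, 14 (19.4%) were higher and 0 lower, where 4.17% and 0.983% of all genes were, and the median log2 change was 0.30 against 0 for all genes. The largest per group included the stefin Stfa1 (2.43, adjusted p = 0.037), the epithelial factor Ehf (1.45, adjusted p = 0.0068), Krt23 (1.43, adjusted p = 0.0044), the membrane protease Prss8 (1.37, adjusted p = 0.0071), Hopx (1.34, adjusted p = 0.012), Spink5 (1.32, adjusted p = 3.0e-04), the desmosomal plaque protein Pkp1 (1.31, adjusted p = 0.0021), Cebpb (1.18, adjusted p = 0.0031), S100a14 (1.14, adjusted p = 0.0055) and the transglutaminase Tgm5 (1.13, adjusted p = 8.1e-04). Stfa1 was at 7.32, 0 and 0 FPKM at E14.5 and at 11.5 and 8.53 FPKM at E16.5, so its change rests on the E14.5 samples at 0. Stefins have close copies that can share reads. Another transglutaminase, Tgm1, went the other way, from a mean of 2.61 to 1.23 FPKM (-0.69, adjusted p = 0.022), under the fold threshold. Its mean at E18.5 was 0.854 FPKM. Tgm3 was at no more than 0.18 FPKM in any sample and was not tested. The count of higher genes was 9 without E14.5 replicate 1, the sample in which Calml3 stood apart. Markers of the gland itself moved at the same step, with 7 of 10 acinar markers (median log2 change 3.98), 6 of 8 duct markers (1.41) and 3 of 5 myoepithelial markers (1.57) higher. Ehf, Prss8 and Krt23 are among the listed genes that glandular epithelia express too, and the part of gland growth in the count was not tested.

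From P5 to the adult, 18 of the 72 genes (25.0%) were lower, against 21.3% of all genes, and 6 (8.33%) were higher, against 2.57%. The lower ones included S100a9 (12.2 ± 4.11 to 0.0180 ± 0.0360 FPKM, n = 2 and 4, adjusted p = 1.0e-06), S100a8 (adjusted p = 8.2e-06), both abundant also in neutrophils, Notch3 (-1.98, adjusted p = 6.2e-05), Klf4 (-1.72, adjusted p = 3.0e-06) and Evpl, an envelope scaffold (-1.37, adjusted p = 7.6e-04). The higher ones included Fa2h (3.97, adjusted p = 4.1e-09) and Tgm5 (1.62, adjusted p = 6.0e-06). Cst6 (1.31), also among the 6, was at 0.236 and 0.372 FPKM at P5 and reached 1 FPKM in adult samples alone. It was tested only for that reason, so its call is no independent support. The shares without such genes were not computed for this step. After rescaling, 10 genes of the list were lower. Rescaling also changed the split over all genes from 376 higher and 3119 lower to 981 higher and 1341 lower.

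Levels of markers of other tissues were compared beside the members, since skin, mucosa and muscle border the gland. The summed level of 8 basal epithelial markers such as Krt5, Krt14 and Trp63, which the gland and the skin share, was 174 to 196 FPKM at E18.5, 196 to 258 FPKM at E16.5 and 174 to 189 FPKM at P5. The 18 hair follicle markers summed to 1.09 to 1.27 FPKM at E18.5 and 1.32 to 1.64 FPKM at E16.5, and 9 of them, with Krt32, Krt33a, Krt81 and Krt86, were at 0 in both E18.5 samples. Tchh, shared by hair sheath and cornified tongue, was their most abundant, at 0.574 and 0.815 FPKM. The 7 markers of oral mucosa summed to 2.98 to 4.58 FPKM at E18.5 and 4.71 to 6.33 FPKM at E16.5, and 4 of them, with Krt76 and Crnn, were at 0 at E18.5. The mucosal keratin Krt13, in contrast, was at 0.351 and 1.24 FPKM at E18.5 and 0.357 and 0.469 FPKM at E16.5. The 16 skeletal muscle markers moved far more, from 1473 to 1775 FPKM at E16.5 to 10.96 to 70.9 FPKM at E18.5. The 7 adipocyte markers went from 0.155 to 0.388 FPKM at E16.5 to 17.8 to 38.3 FPKM at E18.5 and 147 to 583 FPKM at P5. The melanocyte markers were at 2.42 to 2.53 FPKM at E18.5 and 1.87 to 2.28 FPKM at E16.5. In no marker list did a gene have both E18.5 samples above the 11 others. The part of tissue at the border of the gland in the E18.5 levels of the members was not tested.

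**Figure D4:**
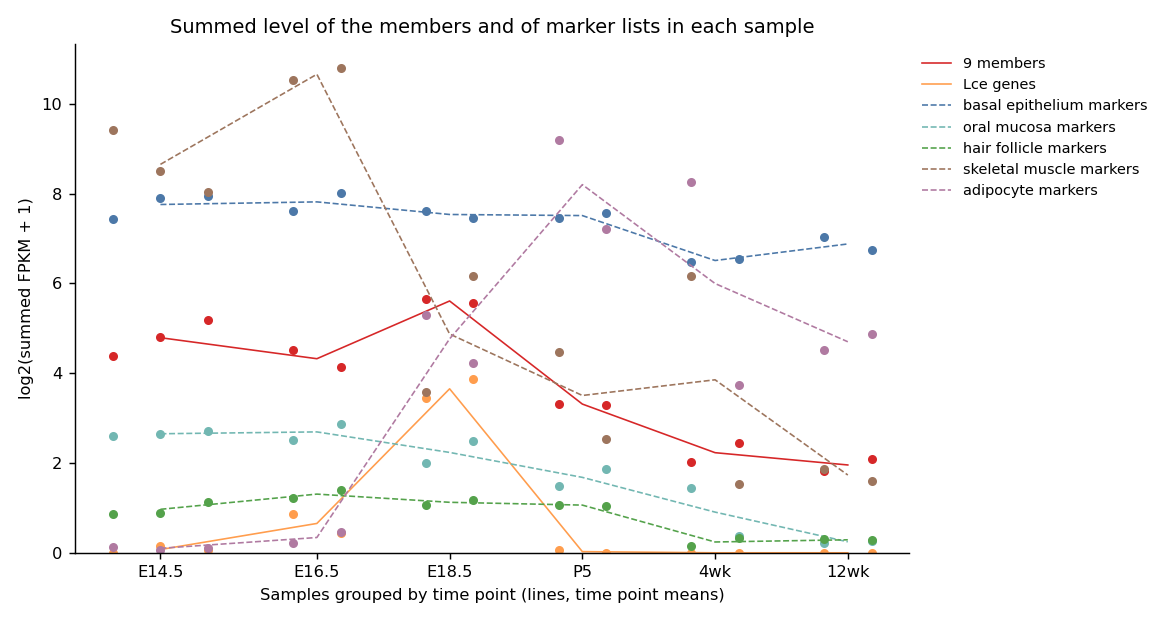
Summed level, as log2(FPKM + 1), of the 9 members, 19 Lce genes and 5 marker lists in each of the 13 samples, with lines through the time point means. The members and the Lce genes are highest at E18.5, at 49.4 and 46.2 FPKM and at 9.86 and 13.6 FPKM, while basal epithelium is at 174 to 196 FPKM there and skeletal muscle at 10.96 to 70.9 FPKM.

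The genes outside the list whose course was most like the mean standardised profile of the members were sought among 8720 genes that reached 10 FPKM. Over the 13 samples the 10 nearest included Uchl5 (r = 0.969), Narf (r = 0.957), Hdc (r = 0.954), Alg9 (r = 0.949), Vps4b (r = 0.943), Yes1 (r = 0.942), Zfp120 (r = 0.938), Idi1 (r = 0.933) and Ube2w (r = 0.931). Uchl5, a deubiquitinase, was at 31.8 FPKM at E16.5, 40.1 FPKM at E18.5 and 19.6 FPKM at 12wk. Yes1, a Src family kinase, was at 20.3, 28.8 and 6.03 FPKM at these time points. The r follows the shape of a course and not its size, and these values were not rescaled. The rise of Uchl5 into E18.5 was smaller in fold terms than that of the members highest there. Hdc, the enzyme that makes histamine, had means of 6.01, 13.98 and 28.5 FPKM over the embryonic time points and 0.791 FPKM at P5. Idi1, an enzyme of sterol synthesis, was at 73.0 FPKM at E18.5 and 19.8 FPKM at P5.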

How the data were processed

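Reads of 50 bp, single-end, were aligned by the authors with TopHat2 2.0.13 (Bowtie2 2.2.6) on mm9, and those with 1 position were counted on genes with featureCounts. The authors then deposited FPKM made with DESeq2 (1.10.1 in the submitters' processing notes). Although median normalization is described, the deposited FPKM behaved as if scaled to the total reads on genes of each sample, so median-of-ratios rescaling was tried. Whole reads were recovered from them and from gene lengths, and served only to give depth. The members, and the lists they were compared with, were chosen with earlier results of these data known.

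Values of genes that reached 1 FPKM in any sample were fitted as log2(FPKM + 1) with limma 3.58.1 (R 4.3.3), with the 6 time points as groups over 13 samples, a variance trend and Benjamini-Hochberg adjustment over 14650 genes. Adult means 4wk and 12wk averaged. No count model was fitted. P-values measure the spread between samples, which are pools of animals in embryos. The fit was tested on simulated data. All members were named, then up to 3 genes a list and direction with the largest called change without overlap, and the 10 genes most like the members. Some genes that this rule selects are not reported here. Genes named for E18.5 levels in the complex, and markers, were chosen after their values were seen. Positions are from GENCODE on mm9.

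Alternatives included another pseudocount (0.1), other filters, median-of-ratios rescaling, no variance trend, an adjusted p below 0.05, the replicate number as a block, only the samples compared, adults as 1 group, and each sample left out.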

Additional observations from a re-analysis of the deposited data

How the results depend on the processing

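Of 256 counts for members and the cornification list over the alternatives, 235 were within 1.5 times the reported count, and 279 of 297 values of single members kept direction and call. All 9 members kept their highest time point after rescaling. With a pseudocount of 0.1, the list had 1 gene lower from E14.5 to E16.5, 6 higher and 6 lower from E16.5 to E18.5, 12 lower at P5 and 30 lower in the adult, and 1 member was higher from E14.5 to E16.5 and 4 lower in the adult. With rescaling, 1 member was lower from E14.5 to E16.5, and the list had 1 gene lower at E18.5, 1 higher at P5 and 10 lower in the adult. With only the samples compared, 1 member was lower from E14.5 to E16.5. With the replicate block, 0 members were lower and Calml3 was at 0.19. Deviations from the time point means had a mean r of -0.016 over 30 pairs of samples with the same replicate number and 0.012 over 40 with different numbers. In a time point of 2 samples the deviations are mirror images, so these means cannot tell whether replicate numbers pair the samples.

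With single samples left out, genes of the list ranged from 9 to 16 higher from E14.5 to E16.5, 2 to 5 lower at E18.5 and 0 to 2 higher at P5, and members from 0 to 2 lower from E14.5 to E16.5 and 1 to 2 lower in the adult. Calml3 ranged from -0.72 to 0.22 from E14.5 to E16.5 and Lor from -0.04 to 0.01 from P5 to the adult, neither called. Over all genes, a pseudocount of 0.1 gave 918 higher and 265 lower from E14.5 to E16.5, 519 higher at P5 and 5248 lower in the adult. Rescaling gave 170 lower at E18.5 and 262 lower at P5. Leaving out E16.5 replicate 1 gave 448 lower at E18.5, leaving out E18.5 replicate 2 gave 172, and leaving out P5 replicate 1 gave 189 higher at P5. The causes were not tested. With 2 samples a time point, low members such as Ivl and Sprr1b are limited by their read numbers.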
